A study of Saccharomyces cerevisiae with 24 samples.

Results

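Of the 24 arrays of the series, 6 were compared here: the 3 arrays titled Δire1+IRE1+DTT, which the series describes as protein stress, and the 3 arrays titled Δire1Δopi3+IRE1 without choline, which it describes as lipid stress. The members were taken by their titles, and every gene measured on them was compared. All strains were budding yeast of the W303 background, Mat a, without their own IRE1 and carrying IRE1 again. DTT cells kept OPI3 and were held for 1 h in 2 mM DTT. The arrays labelled Δopi3 came from cells without DTT and without choline. The 3 arrays of untreated Δire1+IRE1 cells and the 3 arrays of Δire1Δopi3+IRE1 cells fed 1 mM choline overnight served as references, and the same pair of stresses was available in cells carrying ire1ΔLD. The labels used here do not say from which promoter or vector IRE1 was expressed, nor whether the 3 replicates came from separate cultures, so the p-values measure the spread between these arrays, which may be technical. In the direct comparison an agent and a gene deletion cannot be told apart from each other, since no group had both.

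Ire1 is a kinase and ribonuclease of the endoplasmic reticulum (ER) membrane. When the ER is stressed it removes an intron from the HAC1 messenger RNA, and the Hac1 transcription factor made from the spliced message raises genes for ER chaperones, protein modification, transport and degradation, a programme called the unfolded protein response. DTT reduces disulfide bonds, so proteins fail to fold in the ER. Opi3 carries out the last methylation steps from phosphatidylethanolamine to phosphatidylcholine, and choline feeds a separate route to phosphatidylcholine. Many yeast phospholipid genes, INO1 first among them, are activated by Ino2 and Ino4 and repressed by Opi1, which is held at the ER by phosphatidic acid.

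Values are log2 signals relative to the 75th percentile of the same array, and differences are DTT minus Δopi3 on that log2 scale unless stated. The 75th percentile lay between 7645 and 12941 on the 6 arrays, 93.1% to 94.7% of the spots were well above background, and 6210 genes were kept, of which 6042 were above background on all 6 arrays. OPI3 was read first. It stood at 3.75, 3.80 and 3.80 on the DTT arrays and at −9.65, −3.17 and 2.20 on replicates 1, 2 and 3 labelled Δopi3. The 3 arrays labelled Δopi3 were thus not alike: replicate 1 was not above background, replicate 2 was low and replicate 3 lay nearest to the DTT arrays. The difference of 7.33 (SE 2.73, adjusted p = 0.0269) ranged from 4.27 to 13.44 when arrays were left out, and its call was lost in 6 of these settings. In the choline-fed group OPI3 was at −9.73, −9.71 and 0.75. The directions below therefore hold for the arrays as labelled. Values without replicates 2 and 3 of the group are given for many results but not for all. A result without such a value is not thereby unchanged. For example, ALD4 moved from −2.30 to −2.96 and MTC7 from −0.38 to −0.80. IRE1 stood at −2.35, −2.28 and −1.58 with DTT and at −2.55, −2.54 and −1.81 on the arrays labelled Δopi3, and the groups overlapped (difference 0.23, 95% interval −0.29 to 0.75, limma adjusted p = 0.437).

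Of the 6210 genes, 3656 (58.9%) differed between DTT and the arrays labelled Δopi3 at an adjusted p under 0.05 (limma), 2088 (33.6%) higher and 1568 (25.2%) lower with DTT. Most differences were small: the 95% interval lay within 2-fold for 5322 genes (85.7%). A difference of at least 2-fold was called for 123 genes (1.98%) higher with DTT and for 330 genes (5.31%) lower. The 3 arrays of the groups did not overlap for all 123 and for 327 of the 330, against 58.7% of all genes, 33.8% higher and 25% lower with DTT. Within each slide the sign held for all 123 and for 328 to 330 of the 330. Among the 3 arrays labelled Δopi3, replicate 3 lay nearest to the DTT arrays for 65 of the 123 and for 218 of the 330. Without replicates 2 and 3 of that group, 3092 genes were called. Scaling to the E1A control probes raised the median of all genes from 0.05 to 0.70 and the called genes that were higher with DTT from 57.1% to 94.5%, so directions are given relative to the bulk of the genes, and lists whose own median changes sign under that scaling are marked.

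For KAR2, PDI1, ERO1, HAC1 and ULI1, of the unfolded protein response, the direct comparison called no difference between the stresses relative to the 75th percentile. Their intervals lay within 2-fold. With each stress set against its own reference, 12 of 16 ER folding genes, a list that holds KAR2, PDI1 and ERO1, were higher with DTT and 0 lower. With the E1A scaling, which raised all genes, each of the 5 was called higher with DTT, by 0.61 to 0.89, and quantile normalization called PDI1 (0.47) and ERO1 (0.49). KAR2, the main ER Hsp70 chaperone, stood at 5.27, 5.11 and 5.16 with DTT and at 5.26, 5.23 and 4.81 on the arrays labelled Δopi3, against a mean of 2.87 in untreated cells. Both stressed groups were far above the untreated arrays and overlapped with each other (difference 0.08, interval −0.24 to 0.40, adjusted p = 0.671). PDI1, protein disulfide isomerase, stood at 4.32, 4.45 and 4.42 against 4.32, 4.56 and 4.09 (difference 0.08, interval −0.15 to 0.30, adjusted p = 0.56). ERO1, the oxidase that recharges Pdi1, stood at 3.67, 3.66 and 3.65 against 3.50, 3.69 and 3.07 (difference 0.24, interval −0.01 to 0.48, adjusted p = 0.0909; called at 0.37 without replicate 2 of Δopi3). In each of these 3 genes replicate 3 was the lowest of the arrays labelled Δopi3. HAC1 signal stood at 2.19, 2.29 and 2.13 against 2.32, 2.39 and 2.02 (difference −0.04, interval −0.30 to 0.21, adjusted p = 0.776), and spliced and unspliced message were not told apart. ULI1, known as a gene induced by ER stress, had the largest rise with DTT of all 6210 genes, 5.82 over untreated cells, and rose by 5.80 over choline-fed cells. It stood at −0.44, −0.07 and −0.17 with DTT and at −0.31, −0.05 and −0.57 on the arrays labelled Δopi3 (difference 0.08, interval −0.19 to 0.35, adjusted p = 0.614).

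**Figure D1:**
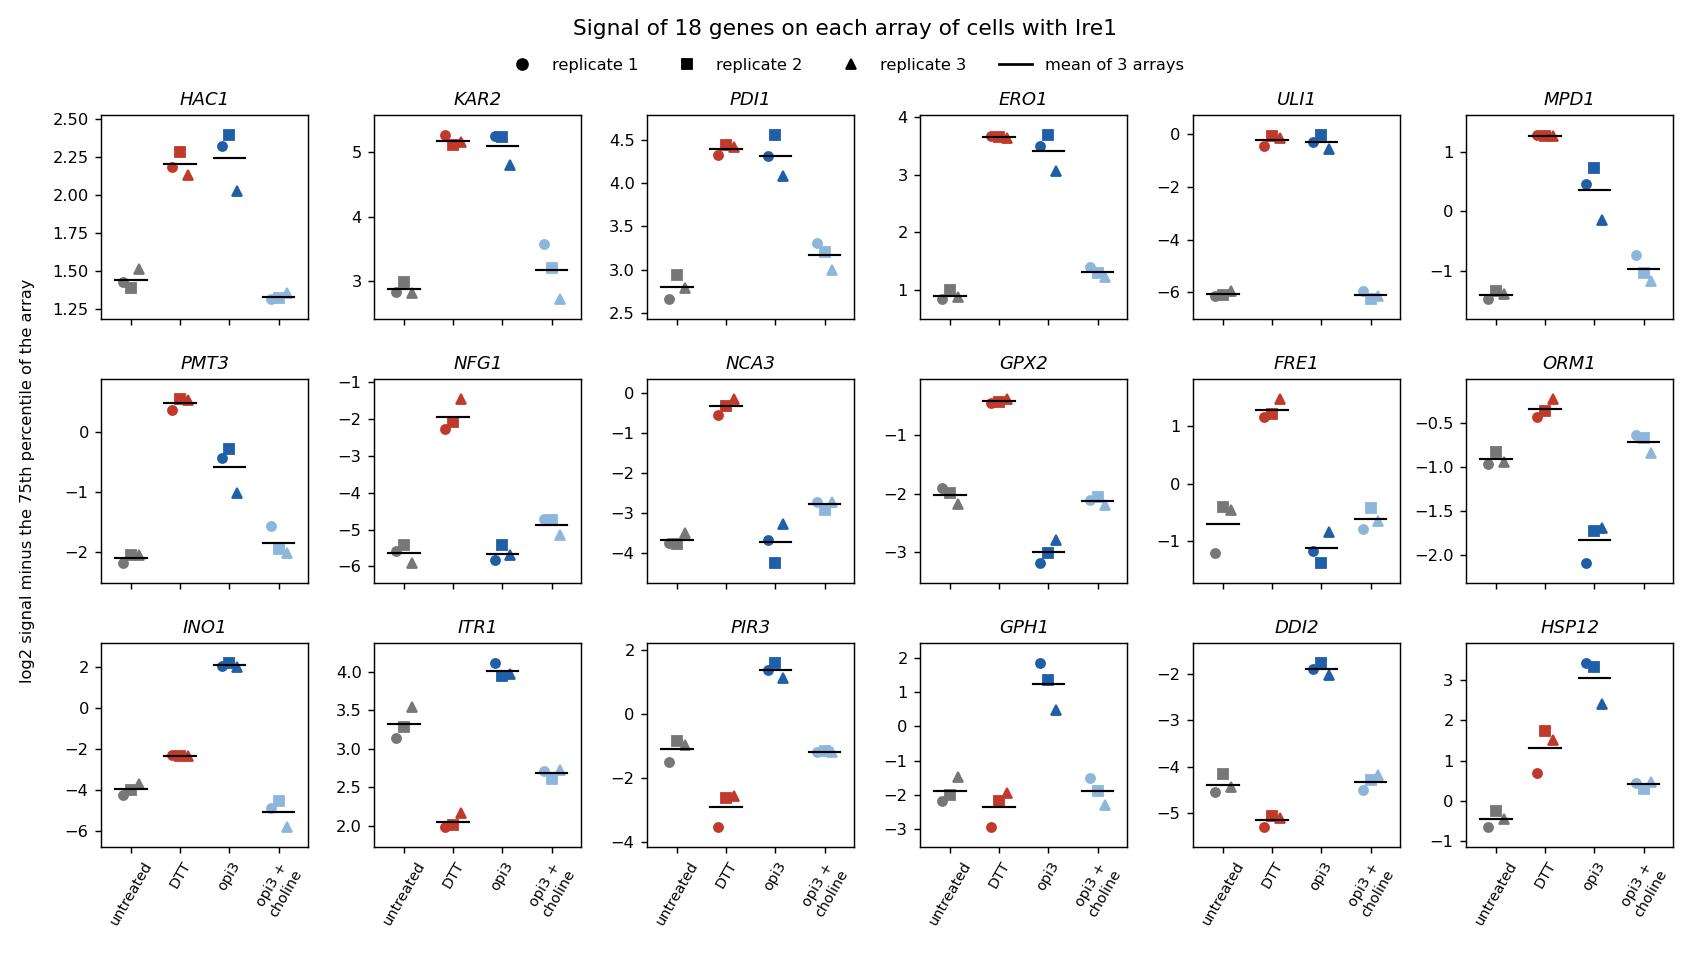
Log2 signal relative to the 75th percentile of the array (vertical axis, a separate scale in each panel) on every array of 4 groups of cells with Ire1, labelled untreated, DTT, opi3 and opi3 with choline; symbols are replicates and the line is the mean of 3 arrays. For HAC1, KAR2, PDI1, ERO1 and ULI1 the arrays of the stresses overlap, NFG1, NCA3, GPX2 and FRE1 are high with DTT, and INO1, ITR1, PIR3, GPH1 and DDI2 are high on the arrays labelled opi3.

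A rise of at least 2-fold was shared by many genes when each stress was set against its own reference, comparisons that share no array. At any size, 69.5% of all genes were called with DTT (39.4% higher, 30.1% lower) and 70.4% on the arrays labelled Δopi3 (36.3% higher, 34% lower). DTT raised 452 genes (7.28%) over untreated cells, the arrays labelled Δopi3 raised 680 (11%) over choline-fed cells, and 270 were in both sets, 59.7% of the first and 39.7% of the second. Of the 270, 158 did not differ between DTT and Δopi3 at the threshold, 69 were lower with DTT and 43 higher, and the interval lay within 2-fold for 186. Of falls of at least 2-fold, 399 genes (6.43%) fell with DTT, 121 (1.95%) fell on the arrays labelled Δopi3, and 43 fell in both, 10.8% and 35.5% of the sets.

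Of the 10 genes of largest shared rise whose interval lay within 2-fold, ULI1 was the first. ATG17, a scaffold of autophagy initiation, rose by 3.82 with DTT and by 3.62 over choline-fed cells (difference 0.28, interval −0.06 to 0.61). TIS11, which marks messages of iron-using proteins for decay, rose by 3.74 and 3.71 (difference 0.47, interval 0.02 to 0.92, adjusted p = 0.0699). YET2, a homologue of a mammalian ER export protein, rose by 3.85 and 3.66 and was slightly higher with DTT (difference 0.41, adjusted p = 0.0366), a call lost in 6 of the settings that left arrays out and 0.13 without replicates 2 and 3 of Δopi3. RTA1 rose by 3.08 and 3.27. SMA1, needed for the spore membrane, rose by 2.92 and 3.68, and of these 10 genes it alone was called lower with DTT (difference −0.63, adjusted p = 0.00243; 0.02 with the E1A scaling). The other 4, YLR349W, YDL114W, YJL152W and YOL037C, are named only by locus and rose by 3.77 to 4.49 with DTT and by 3.73 to 4.72 over choline-fed cells. Calls among the 10 were gained in other settings. Without replicate 1 of Δopi3 ATG17 (0.45) and TIS11 (0.62) were called higher with DTT, and both also without replicate 1 of all groups. TIS11 was called higher without replicate 2 of DTT (0.61). YLR349W (−0.50, not called) was called lower without replicate 3 of Δopi3 (−0.76), replicate 2 of DTT (−0.65) or replicate 3 of all groups. Quantile normalization, normexp background correction and a fit with a term for the replicate number also called YLR349W lower. Without replicates 2 and 3 of Δopi3 its difference was −0.83.

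**Figure D2:**
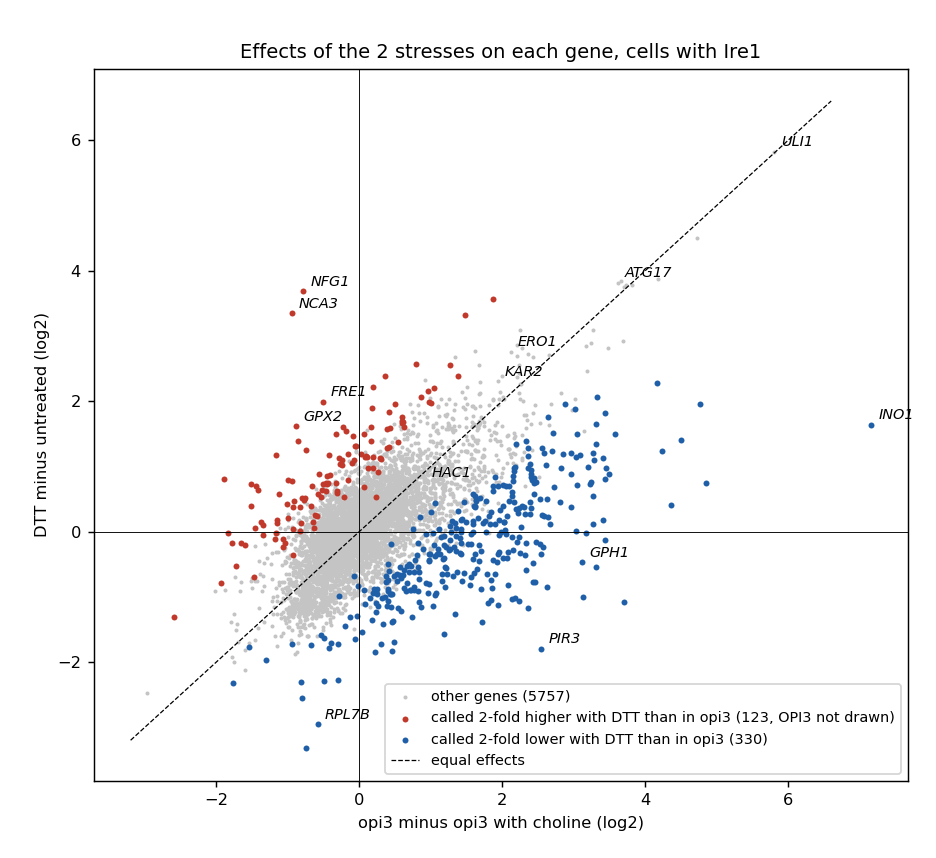
Each point is a gene, with its log2 difference between arrays labelled opi3 and choline-fed opi3 on the horizontal axis and between DTT and untreated cells on the vertical axis, all with Ire1. Red and blue mark the 123 and 330 genes called at least 2-fold higher and lower with DTT than on the arrays labelled opi3. The grey genes ULI1 and ATG17 lie near the dashed line of equal effects, whereas 12 of 16 ER folding genes were called above it.

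Gene groups of the secretory pathway, ER folding included, stood higher with DTT than on the arrays labelled Δopi3. Of 16 ER folding genes, 9 were higher and 1 lower (33.6% and 25.2% of all genes), with a median of 0.36. The member of largest difference was MPD1, a relative of protein disulfide isomerase: 1.29, 1.27 and 1.28 with DTT against 0.47, 0.74 and −0.14 (difference 0.92, SE 0.16, adjusted p = 7.17e-05). All 3 DTT arrays lay above all 3 others. The single member called lower was ERV2, a sulfhydryl oxidase that can act without Ero1 (−0.27, adjusted p = 0.0013; 0.38 with the E1A scaling), and its probe overlaps another annotated gene, IRC16. Of 12 genes of ER-associated degradation 8 were higher and 0 lower, with a median of 0.32, led by the ubiquitin ligase HRD1 (0.74, and 0.48 without replicates 2 and 3 of Δopi3). Of 15 translocation genes 10 were higher and 1 lower, with a median of 0.28. The channel gene SEC61 was higher by 0.45 and SEC66, a subunit of the Sec63 complex, by 0.87.

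Of 20 genes for N-glycosylation, 17 were higher with DTT and 0 lower (33.6% and 25.2% of all genes), with a median of 0.48. Against the separate references 18 rose with DTT over untreated cells (39.4% of all genes did). On the arrays labelled Δopi3 4 rose over choline-fed cells and 9 fell (36.3% and 34% of all genes did). CWH41, glucosidase I, which trims the new glycan, stood at 0.56, 0.51 and 0.69 with DTT and at −0.31, −0.30 and −0.35 (difference 0.91, SE 0.08, adjusted p = 3.15e-08). STT3, the catalytic subunit of oligosaccharyltransferase, was higher by 0.43. All 6 protein O-mannosyltransferase genes were higher with DTT, with a median of 0.78. PMT3 stood at 0.35, 0.54 and 0.53 against −0.44, −0.28 and −1.01 (difference 1.05, SE 0.15, adjusted p = 7.12e-06), PMT1 was higher by 0.68 and PMT2 by 0.52. Of 28 genes of traffic between ER and Golgi 16 were higher and 3 lower, with a median of 0.29. ERP2, of the p24 cargo family, was higher by 0.80. SEC24, the main cargo adaptor of COPII vesicles, went the other way, at 0.36, 0.38 and 0.20 with DTT against 0.91, 1.01 and 0.83 (difference −0.60, adjusted p = 5.23e-07; 0.06 with the E1A scaling).

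The Ire1 pathway list (8 genes: the sensor, HAC1, its ligase, phosphatase and others) held 1 member called higher and 1 lower. That is 12.5% each way, against 33.6% higher and 25.2% lower over all genes. The list median was 0.02 (−0.04 without replicate 2 and −0.01 without replicate 3 of DTT).

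Of 18 genes of inositol and phospholipid synthesis 11 were lower with DTT and 2 higher, with a median of −0.66. Over all genes 25.2% were lower and 33.6% higher. The E1A scaling put the median at −0.01, with 3 called lower and 7 higher. INO1, which makes inositol phosphate, stood at −2.32, −2.37 and −2.36 with DTT and at 2.01, 2.17 and 2.00 on the arrays labelled Δopi3 (difference −4.41, SE 0.25, adjusted p = 4.67e-11). It had risen under both stresses, by 1.64 with DTT over untreated cells and by 7.16 over choline-fed cells, so the groups differ in size and not in direction. The inositol transporter ITR1 did differ in direction: it stood at 1.98, 2.01 and 2.17 with DTT, at 4.12, 3.95 and 3.98 on the arrays labelled Δopi3 (difference −1.96, SE 0.09, adjusted p = 2.9e-12), and at a mean of 3.32 untreated and 2.68 with choline. It fell with DTT by 1.27 and was raised over choline-fed cells by 1.33.

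The other members called at least 2-fold lower, named here because they were so few, were PSD1, INO4 and CHO2. PSD1, phosphatidylserine decarboxylase, was lower by −1.21 (SE 0.09), INO4, the partner of Ino2, by −1.09 (SE 0.08), and CHO2, which makes the first methylation before Opi3, by −1.03 (SE 0.10). CHO1, phosphatidylserine synthase, was lower by −0.79. Each of these 4 genes fell with DTT below untreated cells and stood above choline-fed cells on the arrays labelled Δopi3. Part of such a gap can lie in the choline-fed cells. The authors' deposited log2 ratios, whose reference is not named, put CHO1 at 0.18 on Δopi3 and −0.63 with choline. The median of the whole list on Δopi3 was 0.16 against untreated cells and 0.39 against choline-fed cells. With the E1A scaling PSD1 was still called (−0.56) whereas INO4, CHO2 and CHO1 were not (−0.44, −0.38 and −0.14). ECT1, of the ethanolamine branch, was higher with DTT by 0.38.

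Other lipid groups went both ways, as did all genes, of which 33.6% were higher and 25.2% lower with DTT. Of 12 genes of fatty acid synthesis 7 were lower and 2 higher, with a median of −0.40 (0.25 with the E1A scaling, −0.17 without replicate 3 of all groups, and −0.05 with 5 lower and 3 higher without replicates 2 and 3 of Δopi3). ACC1, acetyl-CoA carboxylase, stood at 2.96, 2.67 and 2.41 with DTT against 3.91, 3.63 and 3.83 (difference −1.11, SE 0.13), and FAS1 was lower by −0.72. The elongase gene ELO1 was higher by 0.87: it was not called against untreated cells with DTT and was lower by −1.46 than in choline-fed cells on the arrays labelled Δopi3. Storage lipid genes were higher in 7 and lower in 1 of 11, with a median of 0.51, led by the sterol acyltransferase ARE2 (0.98, SE 0.09). Ergosterol genes were higher in 13 and lower in 4 of 24, with a median of 0.28. ERG27, a ketoreductase of the pathway, was higher by 0.66, and UPC2, its transcriptional activator, was lower by −1.01 (not called with the E1A scaling). Of 15 sphingolipid genes 9 were higher and 3 lower, with a median of 0.35. ORM1, which restrains the first enzyme of sphingolipid synthesis, stood at −0.44, −0.36 and −0.23 against −2.09, −1.73 and −1.69 (difference 1.496, SE 0.11, adjusted p = 2e-09). It rose by 0.57 with DTT, and on the arrays labelled Δopi3 it was lower than with choline (−1.12).

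**Figure D3:**
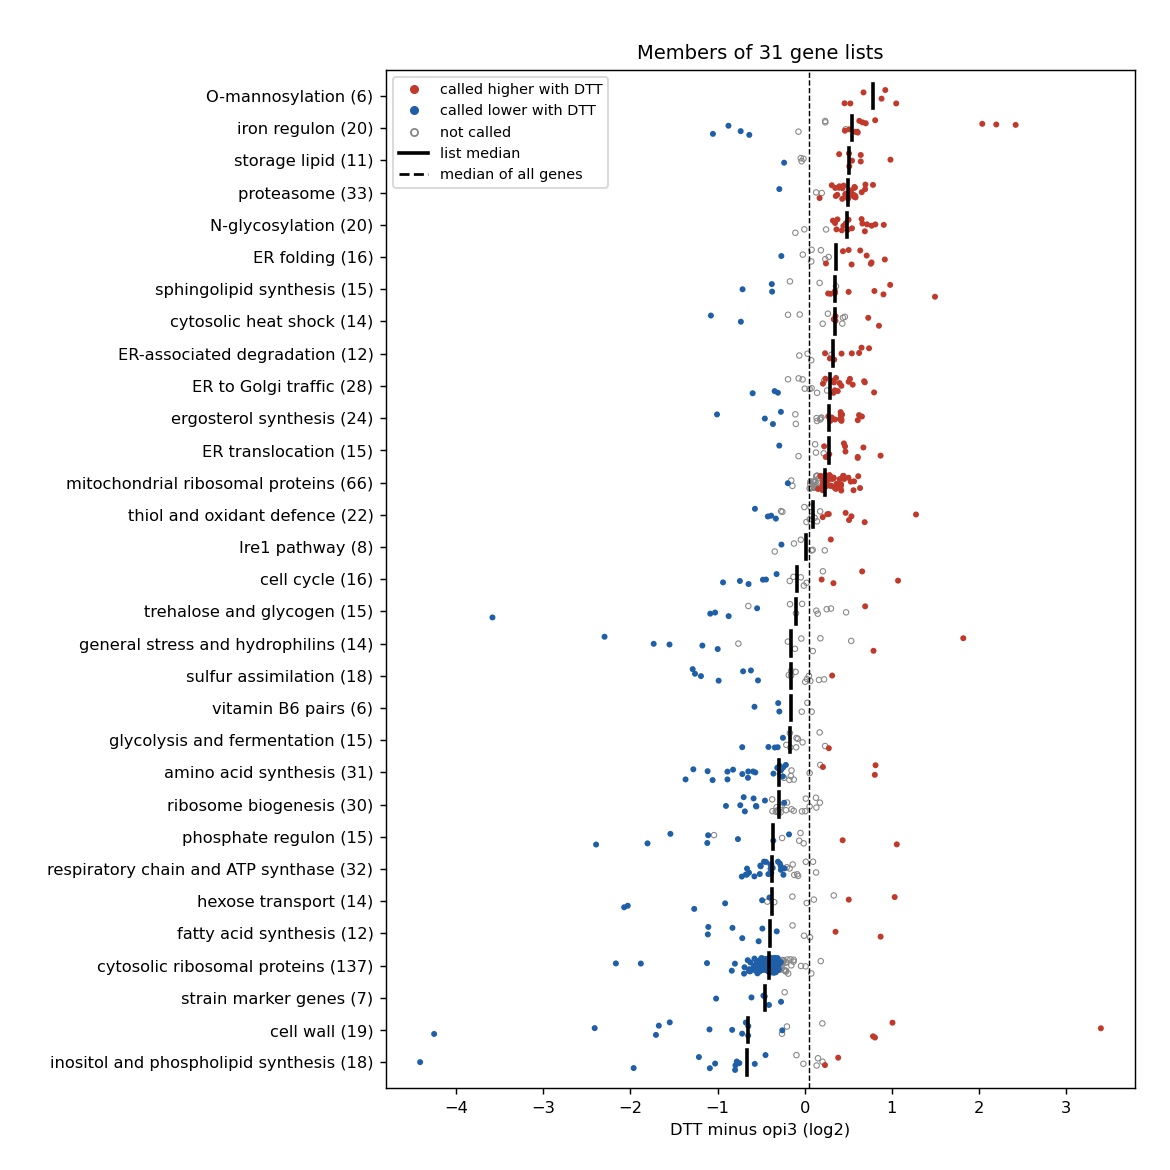
Log2 difference DTT minus opi3 (horizontal axis) of every measured member of 31 gene lists (number of members in brackets), with called members in red or blue, the list median as a thick bar and the median of all genes as a dashed line. O-mannosylation, with a median of 0.78, is at the top, and inositol and phospholipid synthesis, with −0.66, at the bottom.

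Leaving out OPI3, genes not well above background on all 6 arrays and genes outside the gene table used for names, the 12 largest differences in favour of DTT held no member of the ER lists. NFG1 stood at −2.29, −2.09 and −1.47 with DTT and at −5.84, −5.42 and −5.69 on the arrays labelled Δopi3 (difference 3.70, SE 0.23, adjusted p = 1.21e-10). NCA3, of the SUN family of wall-associated proteins, stood at −0.53, −0.30 and −0.14 against −3.66, −4.24 and −3.28 (difference 3.40, SE 0.18, adjusted p = 1.97e-11). GPX2, a peroxidase that reduces lipid hydroperoxides, stood at −0.43, −0.43 and −0.37 against −3.19, −3.03 and −2.81 (difference 2.60, SE 0.10, adjusted p = 1.96e-13). In each the DTT arrays did not overlap with the arrays labelled Δopi3. NFG1, NCA3 and GPX2 rose with DTT over untreated cells (3.68, 3.35 and 1.62). They were lower on the arrays labelled Δopi3 than with choline (−0.78, −0.95 and −0.88). The authors' deposited log2 ratios, whose reference is not named, put them at −0.02, −0.05 and −0.99 on Δopi3. Choline-fed cells stood at 0.76, 0.9 and −0.1 there, so for NFG1 and NCA3 the gap lay on the choline-fed side.

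Iron and glutathione transport followed. Of 20 genes of the iron regulon 12 were higher and 4 lower (60% and 20%, against 33.6% and 25.2% of all genes), with a median of 0.55. FRE1, a plasma membrane metal reductase, stood at 1.17, 1.21 and 1.48 against −1.17, −1.39 and −0.84 (difference 2.42, SE 0.18, adjusted p = 1.73e-09). FET3, the multicopper ferroxidase, stood at 0.15, −0.28 and 0.24 against −2.37, −2.73 and −1.38 (difference 2.20, SE 0.26). Replicate 3 was again the array labelled Δopi3 nearest to DTT. ENB1, a siderophore transporter, was higher by 2.04 (SE 0.19), and FTR1, the permease partner of Fet3, by 0.51. FRE3, a reductase for siderophores, went the other way (−1.05, SE 0.12; not called with the E1A scaling). Both sides contributed: FRE1, FET3 and ENB1 rose with DTT by 1.99, 0.80 and 1.25 and were lower than with choline on the arrays labelled Δopi3, by −0.51, −1.89 and −0.75. GEX1 and GEX2, glutathione exchangers so alike that their probes may not tell them apart, were higher by 2.19 and 2.34.

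The rest of these 12 were ARO10, GPD1, YJL047C-A and YJR079W. ARO10, a decarboxylase of aromatic amino acid breakdown, stood at 0.50, −0.10 and 0.03 against −2.08, −1.83 and −2.17 (difference 2.17, SE 0.24). GPD1, the glycerol-3-phosphate dehydrogenase of glycerol synthesis, stood at 1.99, 2.02 and 2.07 against 0.86, 0.50 and −1.04. The difference of 1.92 (SE 0.36, adjusted p = 0.00014) became 1.17 without replicates 2 and 3. YJL047C-A was higher by 2.04 and overlaps the small nucleolar RNA gene SNR60, and YJR079W was higher by 1.83 and overlaps BNA2 and AIM24, so their signals cannot be assigned to 1 gene. Of the 123 genes, 90 rose with DTT over untreated cells (39.4% of all genes did). On the arrays labelled Δopi3, 66 fell below choline-fed cells (34% of all genes did), and 35 did both. The 123 were picked by the same DTT and Δopi3 arrays, which raises these counts. A fall below choline-fed cells need not be a fall below untreated cells.

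In the largest differences the other way, the arrays labelled Δopi3 mostly stood above choline-fed cells. Of the 330 genes, 294 rose over choline-fed cells (36.3% of all genes did). With DTT 150 fell below untreated cells (30.1% of all genes did), 116 did both and 82 rose under both stresses. The 330 were picked by the same DTT and Δopi3 arrays, which raises these counts. After INO1 came PIR3, a covalently bound cell wall protein, at −3.54, −2.62 and −2.56 with DTT and 1.36, 1.57 and 1.104 on the arrays labelled Δopi3 (difference −4.25, SE 0.27, adjusted p = 1.64e-10). It fell by 1.80 with DTT and stood 2.55 above choline-fed cells. Cell wall genes as a list were lower with DTT in 12 and higher in 4 of 19 (25.2% and 33.6% of all genes). The list median was −0.65 (0.00 with the E1A scaling, which left 5 called lower and 5 higher). SED1, an abundant wall glycoprotein, stood at 3.83, 4.18 and 4.13 against 5.73, 5.73 and 5.31 (difference −1.55, SE 0.13).

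Glycogen genes were close behind. GPH1, glycogen phosphorylase, stood at −2.93, −2.18 and −1.96 against 1.84, 1.36 and 0.48 (difference −3.58, SE 0.29, adjusted p = 6.63e-09), and GAC1, a phosphatase subunit that activates glycogen synthase, at −7.69, −5.97 and −5.84 against −2.35, −2.54 and −2.72 (difference −3.97, SE 0.44). Of the 15 genes of the trehalose and glycogen list 5 were lower and 1 higher (33.3% lower, against 25.2% of all genes). The list median was −0.10 (0.55 with the E1A scaling). Single arrays moved it: the median was 0.15 without replicate 1 of Δopi3, 0.25 without replicate 1 of all groups, 0.03 without replicate 1 of DTT, −0.43 with 7 lower without replicate 3 of all groups, and −0.58 with 8 lower and 0 higher without replicates 2 and 3 of Δopi3. DDI2 and DDI3, near-identical cyanamide hydratase genes whose probes may read both, stood at −5.30, −5.06 and −5.11 and at −5.22, −4.99 and −5.01 with DTT. On the arrays labelled Δopi3 they stood at −1.90, −1.76 and −2.02 and at −1.81, −1.66 and −1.96 (differences −3.27 and −3.26, SE 0.11 for both). POT1, the thiolase of peroxisomal fatty acid breakdown, rose under both stresses, by 1.40 with DTT and by 4.51 over choline-fed cells (difference −3.15, SE 0.35). SHH3, a homologue of a succinate dehydrogenase subunit, also rose under both, by 0.75 and 4.85 (difference −3.63). CPP3, DPA10, YHR213W-A and YCL048W-A complete the 12 largest under the same conditions, with differences of −3.60, −3.23, −3.19 and −3.01.

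Some genes were measured on one side only, and their folds are lower bounds under the processing used in the text. For the dim group the bound took, array by array, the larger of its measured signal and the faintest signal still called above background. YBL044W, SMK1, a sporulation kinase, YDL023C and YOR293C-A were not well above background on any array labelled Δopi3 and were at least 3.01-fold, 3.40-fold, 1.86-fold and 1.45-fold higher with DTT. In the other direction MAN2, a mannitol dehydrogenase, TDA8, YBR103C-A and YDL032W were not well above background on any DTT array and were at least 8.62-fold, 2.68-fold, 3.17-fold and 4.11-fold higher on the arrays labelled Δopi3. The fitted difference of YDL023C fell from 1.98 to 1.00 without replicates 2 and 3 of Δopi3. With normexp background correction it was 0.38, and YOR293C-A was no longer called (0.23, adjusted p = 0.113), both below the bounds given. The weakest log2 differences under other processing were 0.74 for YBL044W, 0.78 for SMK1 and −2.08 for MAN2. They were −1.41 for TDA8, −1.42 for YBR103C-A and −1.41 for YDL032W. These too are smaller than the bounds given, so none of the bounds holds under every processing.

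Of 14 heat shock genes 11 rose with DTT and 10 over choline-fed cells (39.4% and 36.3% of all genes did). Between the stresses 5 were higher with DTT and 2 lower (35.7% and 14.3%, against 33.6% and 25.2% of all genes). The share higher was thus near that of all genes. Their median of 0.34 became −0.10 without replicates 2 and 3 of Δopi3 and −0.08 without replicate 3 of all groups. SSA1, a cytosolic Hsp70, stood at 2.14, 1.79 and 2.24 against 1.58, 1.58 and 0.46 (difference 0.85, adjusted p = 0.00358; 0.48 and adjusted p = 0.09005 without those 2 arrays). HSP26, a small heat shock protein, stood at −1.27, −0.58 and 0.23 against 1.31, 0.60 and −0.30, groups that overlap (difference −1.08, adjusted p = 0.0387, not called in 6 of the settings that left arrays out, where it ranged from −1.88 to −0.33). Of 14 general stress genes 2 were higher and 5 lower (14.3% and 35.7%, against 33.6% and 25.2% of all genes). The median of this list was −0.15 (0.50 with the E1A scaling). It was 0.20 without replicate 1 of Δopi3, 0.37 without replicate 1 of all groups, 0.02 without replicate 1 of DTT, −0.67 with 7 lower without replicate 3 of all groups, and −0.96 with 8 lower without replicates 2 and 3 of Δopi3. HSP12, a membrane-binding hydrophilin, stood at 0.70, 1.73 and 1.52 against 3.41, 3.32 and 2.41 (difference −1.73, SE 0.29), and ALD4, a mitochondrial aldehyde dehydrogenase, was lower by −2.30 (SE 0.27). RTC3 stood at −0.18, −0.08 and 0.25 against −0.74, −1.59 and −3.13, and its difference of 1.82 was 1.17 without replicate 3 of Δopi3 and 0.74 without replicates 2 and 3. Thiol and oxidant defence was higher in 8 and lower in 4 of 22 (36.4% and 18.2%, against 33.6% and 25.2% of all genes). Its median was 0.10 (−0.05 without replicates 2 and 3 of Δopi3, −0.01 without replicate 3 of all groups). The efflux pump gene ATR1 led this list (1.28, SE 0.17).

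The lists of nutrient and energy genes that follow had negative medians, as measured against the 75th percentile. Each held more genes called lower than higher, whereas over all genes 25.2% were lower and 33.6% higher. In sulfur assimilation, hexose transport and glycolysis most members were not called lower. Amino acid synthesis was lower in 20 and higher in 3 of 31, with a median of −0.29 (0.36 with the E1A scaling, which called 2 lower and 6 higher). All 31 fell with DTT below untreated cells, against 23 that fell below choline-fed cells on the arrays labelled Δopi3. LEU1, of leucine synthesis, stood at 2.39, 2.43 and 2.45 against 3.89, 3.88 and 3.59 (difference −1.37, SE 0.08), and BAT1, the mitochondrial branched-chain aminotransferase, at 3.38, 3.44 and 3.36 against 4.60, 4.48 and 4.45 (difference −1.11, SE 0.06). LYS9, of lysine synthesis, was higher by 0.81. Sulfur assimilation was lower in 7 and higher in 1 of 18, with a median of −0.16 (0.50 with the E1A scaling, 0.01 without replicate 1 of Δopi3, −0.36 without replicate 3 of all groups, and −0.50 without replicates 2 and 3 of Δopi3), and SAM2, which makes S-adenosylmethionine, the methyl donor of phosphatidylcholine synthesis, was lower by −1.29 (SE 0.12). The phosphate regulon was lower in 8 and higher in 2 of 15, with a median of −0.36 (0.29 with the E1A scaling). The acid phosphatase PHO5 was lower by −2.39 (SE 0.40), and PHM6 was higher by 1.06.

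Hexose transport was lower in 6 and higher in 2 of 14, with a median of −0.38 (0.28 with the E1A scaling, −0.13 without replicate 1 of all groups, −0.14 without replicate 1 of DTT, −0.22 without replicate 1 of Δopi3, and −0.58 without replicates 2 and 3 of Δopi3). The low-affinity transporter HXT1 stood at 3.45, 3.96 and 3.88 against 2.60, 2.75 and 2.84 (difference 1.03, SE 0.15), and the high-affinity transporter HXT6, nearly identical to HXT7, at −2.75, −1.35 and −1.21 against 0.77, 0.36 and −0.23. Its difference of −2.07 was −1.35 without replicate 1 of all groups. Glycolysis was lower in 5 and higher in 1 of 15 (33.3% lower, against 25.2% of all genes). Its median of −0.17 turned to 0.13 with quantile normalization and 0.49 with the E1A scaling. It was −0.04 without replicates 2 and 3 of Δopi3. PDC1, pyruvate decarboxylase, was lower by −0.72. Respiratory chain and ATP synthase genes were lower in 23 of 32 and higher in 0, with a median of −0.37 (0.28 with the E1A scaling, which called 5 higher and 0 lower). QCR10, of complex III, was lower by −0.72.

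Of 33 proteasome genes 30 were higher with DTT, with a median of 0.49. Over all genes 33.6% were higher and 25.2% lower. RPN13, a ubiquitin receptor, stood at 0.93, 0.86 and 0.79 against 0.13, 0.13 and −0.03 (difference 0.78, SE 0.07, adjusted p = 3.36e-08), and PRE5, of the core particle, was higher by 0.57. Over untreated cells 31 rose with DTT (39.4% of all genes did). Against choline-fed cells 4 rose and 5 fell on the arrays labelled Δopi3 (36.3% and 34% of all genes did). The single lower member was RPN4, the transcription factor of proteasome genes (−0.29, adjusted p = 0.0389, not called in 6 of the settings that left arrays out, and 0.36 with the E1A scaling). Cytosolic ribosomal protein genes were lower in 106 of 137 and higher in 0, with a median of −0.40 (0.25 with the E1A scaling, which called 2 lower and 5 higher); without replicates 2 and 3 of Δopi3, 46 were lower and 1 higher, and without replicate 3 of all groups 48 were lower. The member of largest difference was RPL7B, whose probe shares its place with SNR59, at −3.83, −4.21 and −3.80 against −1.91, −1.97 and −1.46 (difference −2.17, SE 0.14).

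Of 30 ribosome biogenesis genes, 29 fell with DTT below untreated cells and 30 fell on the arrays labelled Δopi3 below choline-fed cells. Between the stresses 9 were lower with DTT (30%, against 25.2% of all genes) and 0 higher (against 33.6%). The median of −0.29 was 0.36 with the E1A scaling and −0.48 with 19 lower without replicate 1 of Δopi3. It was 0.07 without replicates 2 and 3 of Δopi3 and also without replicate 3 of all groups. NUG1, a nuclear GTPase, was lower by −0.90, and by −0.56 without those arrays. Mitochondrial ribosomal protein genes were higher in 41 and lower in 1 of 66 (33.6% and 25.2% of all genes), with a median of 0.24, led by MRPS35 (0.64). Cell cycle genes were split, 4 higher and 6 lower of 16 (25% and 37.5%, against 33.6% and 25.2% of all genes). Their median was −0.09 (0.57 with the E1A scaling, which called 9 higher and 0 lower). PCL2, a G1 cyclin, was higher by 1.07 (SE 0.07) and SWI5, a factor of late mitosis, lower by −0.94 (SE 0.10). Vitamin B6 genes were lower in 3 of 6, with a median of −0.16 (0.49 with the E1A scaling). Of 7 strain marker genes 6 were lower with DTT, with a median of −0.46 (0.19 with the E1A scaling, which called 0; −0.19 without replicate 3 of all groups and −0.23 without replicates 2 and 3 of Δopi3, each with 3 lower), led by LEU2 at −1.02 (SE 0.14). The amino acid list shares a member with them, and their part in its result was not tested.

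Taking each stress against its own reference, (DTT minus untreated) minus (Δopi3 minus choline-fed), gave 2914 called genes (46.9%), 24.3% of all genes higher and 22.6% lower, with 158 (2.54%) at least 2-fold higher and 409 (6.59%) at least 2-fold lower with DTT. This term shares the DTT and Δopi3 arrays with the direct comparison and is no independent repeat of it. Of the 123 and 330 genes above, 116 and 314 were called with the same sign. In the lists, 29 of 33 proteasome genes and 17 of 20 N-glycosylation genes were higher, and 10 of 18 phospholipid genes were lower. Of 16 ER folding genes 12 were higher and 0 lower, with a median of 0.74 against 0.36 in the direct comparison.

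The same pair of stresses was measured on other arrays in cells with ire1ΔLD, a form of Ire1 named as lacking its lumenal domain. There 3867 genes were called (62.3%), 31.9% of all genes higher and 30.4% lower with DTT. Of the 123 genes at least 2-fold higher with DTT in cells with Ire1, 111 were called with the same sign in cells with ire1ΔLD, and of the 330 lower genes 301 were. Of the 123 and 330 genes, 71 and 205 were called at least 2-fold with the same sign there. A difference between the forms was called for 25 (20.3%) and 68 (20.6%), against 8.05% of all genes. It went toward a smaller difference with ire1ΔLD in 20 and 63 of these. Both sets were picked on the arrays with Ire1, which raises these counts. NFG1 differed by 4.62 there against 3.70, NCA3 by 3.49 against 3.40, and PIR3 by −3.24 against −4.25, none of them a called difference between the forms. GPH1 (−1.89 against −3.58) and FRE1 (3.26 against 2.42) did have a called difference. The interaction term was called for 500 genes (8.05%), and the count moved with single arrays. It was 1264 without replicate 3 of the arrays labelled Δopi3 with Ire1 and 33 without replicate 2 of all groups, 226 without replicate 1 of all groups, and between 296 and 329 without replicate 1 or 2 of DTT with Ire1, replicate 2 or 3 of DTT with ire1ΔLD, or replicate 2 of Δopi3 with Ire1. An unadjusted p under 0.05 was found for 1388 genes.

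Several genes of the unfolded protein response, and the autophagy gene ATG17, had a called interaction. ULI1 was not called between DTT and Δopi3 with Ire1 (0.08) but was lower with DTT by −1.49 with ire1ΔLD (interaction −1.57, SE 0.18, adjusted p = 2.59e-05). ATG17 went from 0.28 to −1.503 (interaction −1.78, adjusted p = 7.54e-05), ERO1 from 0.24 to −0.69 (interaction −0.93, adjusted p = 0.00179) and MPD1 from 0.92 to −0.42 (interaction −1.34, adjusted p = 0.00103). HAC1 message went the other way, from −0.04 to 0.68 (interaction 0.73, adjusted p = 0.0135). KAR2 (−0.27, adjusted p = 0.494) and PDI1 (−0.37, adjusted p = 0.152) had no called interaction. The ranking took called genes in the gene table used for names, well above background on all 12 arrays, with the same sign in every replicate. The 4 largest positive interactions were then HSP12, RTC3, PUT4, a proline permease, and GPH1. The 4 largest negative ones were INO1, MTC7, ATG17 and YLR412C-A. YOL037C (−2.26), YLR349W (−1.82) and TDA8 (1.74) fell outside these conditions. INO1 was lower with DTT by −6.46 with ire1ΔLD against −4.41 with Ire1 (interaction −2.05, adjusted p = 0.00133), and HSP12 differed by 0.38 against −1.73 (interaction 2.11, adjusted p = 0.0035).

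**Figure D4:**
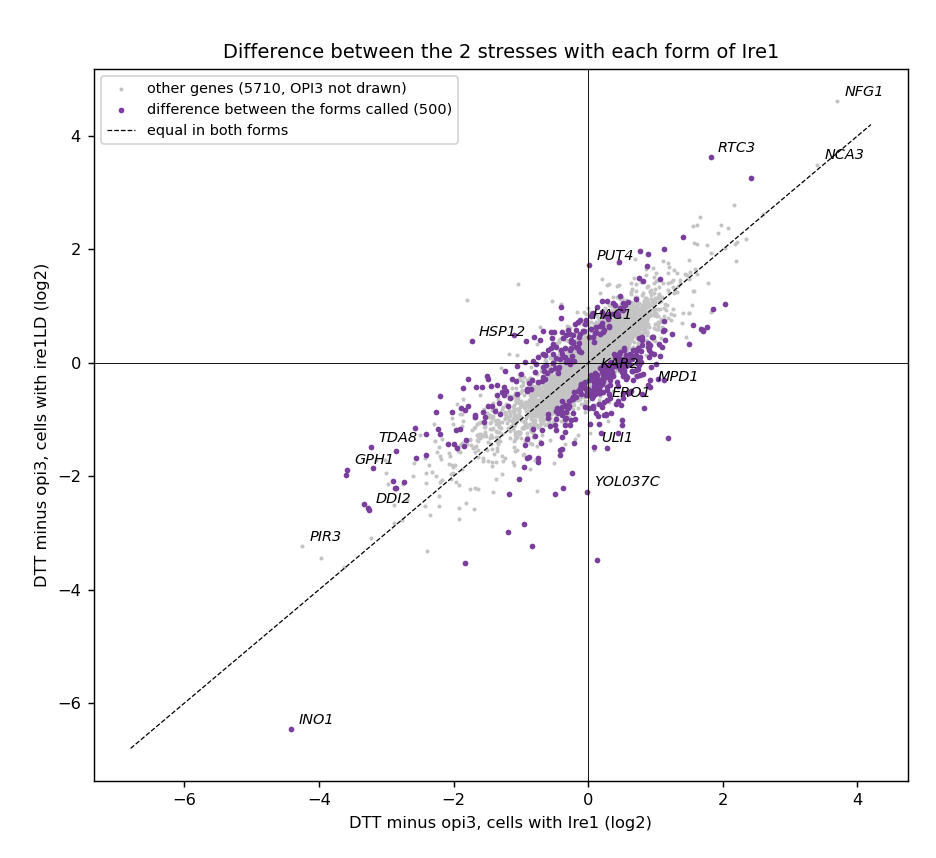
Each point is a gene, with its log2 difference DTT minus opi3 in cells with Ire1 on the horizontal axis and in cells with ire1ΔLD on the vertical axis; purple marks the 500 genes with a called interaction. NFG1, NCA3 and PIR3 have no called interaction, whereas ULI1, at 0.08 and −1.49, and INO1, at −4.41 and −6.46, lie below it.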

How the data were processed

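Gene expression was measured on one-colour Agilent arrays, with 100 ng of total RNA labelled with Cy3 per the labels. Intensity values of single spots were deposited as scanner output, and per the file headers the processed signal of Feature Extraction is background-subtracted and detrended, without scaling one array to another. A further deposited file gives log2 ratios of group means to an unnamed reference, and served only as an alternative for named genes. Outlier spots were left out, log2 signals were set relative to the array's 75th percentile, and spots and then probes of a gene were averaged. Genes entered the tests if, on every array of at least 1 group, over 50% of the spots of a probe lay well above background, which left 6210 genes. The gene table used for names holds 5753 of them. The fit used all 24 arrays, with a mean for each of 8 groups and 16 degrees of freedom left, by limma 3.58.1 (with statmod 1.5.0; tables were read by data.table, version 1.17.8) under R 4.3.3. P-values are two-sided and adjusted by Benjamini-Hochberg over all genes kept, calls are at an adjusted p under 0.05, and a 2-fold change is 1 on the log2 scale. An exact permutation test of 3 against 3 cannot go below 0.1. The number of arrays limits the precision: the median standard error was 0.098.

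Named genes were 8 fixed genes, the 12 largest called differences each way, bounded genes, list extremes and brightest members, the 10 largest shared rises, and the largest interactions; others are marked in the text. The members and lists were chosen with earlier results of these data known. Same-numbered arrays share a slide, but their deviations from the group means correlated at −0.164, 0.283 and −0.321, so the numbers were not taken to pair the samples. Normexp used the median spot signal in place of a mean signal. The planned search of promoters for motifs was not run, and sequences and coordinates are not used here. Scripts were tested on simulated data.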

Additional observations from a re-analysis of the deposited data

Results flagged for a closer look

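For 43 of the 120 genes named, the difference between DTT and the arrays labelled Δopi3 was not the same with ire1ΔLD as with Ire1. The call is by the interaction term of the limma model at an adjusted p under 0.05, which 8.05% of all genes passed. Many named genes were picked by a large difference on the same arrays with Ire1, and some by the interaction itself. Such picking raises the count and favours smaller differences with ire1ΔLD. Values are the log2 difference with ire1ΔLD minus that with Ire1. The number of genes with a called interaction moved with single arrays, from 33 to 1264, and no explanation was tested.

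Of the secretory pathway, the interaction was −1.57 for ULI1, −1.34 for MPD1, −0.93 for ERO1, −0.72 for PMT3, −0.70 for PMT2, −0.55 for PMT1 and −0.48 for ERP2, and 0.73 for HAC1. It was −1.78 for ATG17 and −1.14 for YET2. Of lipid genes, it was −2.05 for INO1 and 0.84 for ELO1. Of cell cycle genes, it was −0.51 for SWI5 and 0.41 for PCL2.

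Of iron genes, it was 0.84 for FRE1 and 1.003 for FRE3. Of stress and carbohydrate genes, it was 2.11 for HSP12, 1.81 for RTC3, 1.70 for GPH1, 1.07 for ADH2, 0.85 for MAN2, 0.66 for MAL12 and 0.64 for MAL32. Of nitrogen genes, it was 1.71 for PUT4, 1.63 for PUT1, 1.49 for DAL80, 1.27 for MEP2, 0.77 for GAP1 and 0.73 for DUR12. It was 0.70 for DDI2, 0.66 for DDI3 and −1.13 for THI4.

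The other genes are known here mainly by locus or a short name. The interaction was −2.26 for YOL037C, −1.82 for YLR349W and for MTC7, −1.70 for YLR412C-A, −1.17 for YJL152W, −1.001 for YDL114W, −0.998 for YJL047C-A, and −0.91 for YOR293C-A. It was 1.34 for YHR213W-A, 1.63 for CPP3 and 1.74 for TDA8, which was not well above background on any array with ire1ΔLD.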

How the results depend on the processing

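The count of genes called between DTT and the arrays labelled Δopi3 was 3656, and it was 3988 with the replicate block, 2772 with only the compared groups, 2697 to 3636 with arrays left out, and 3092 without replicates 2 and 3 of Δopi3, a setting chosen after seeing the data. With the E1A scaling the 2-fold counts were 1415 higher and 123 lower, and normexp gave 71 higher. That scaling also called 1771 genes for Δopi3 against untreated, 2368 against choline-fed, 4887 with separate references, 2449 with ire1ΔLD and 76 for the interaction. The interaction count was 802 with the replicate block, 189 with only the compared groups and 33 to 1264 with arrays left out. The count with separate references was 1847, without replicate 2, to 3010 with arrays left out. The cause was not tested.

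Of 104 named genes that were called, 80 kept sign and call in every setting and 4 reversed, all with the E1A scaling: ERV2 (0.38), SEC24 (0.055), RPN4 (0.36) and SMA1 (0.021). Among those not called, that scaling turned HAC1 to 0.61, YLR349W to 0.15, YOL037C to 0.64, RTA1 to 0.48, MTC7 to 0.27 and YLR412C-A to 0.41. Quantile normalization turned HAC1 to 0.074, YOL037C to 0.020 and PUT4 to −0.047, and normexp turned YDL114W to −0.022. Without replicates 2 and 3 of Δopi3, KAR2 was −0.080, ATG17 −0.066 and PUT4 −0.41. With 1 array or replicate left out the values ranged for IRE1 from −0.015 to 0.47, HAC1 from −0.16 to 0.030, KAR2 from −0.066 to 0.18, PDI1 from −0.053 to 0.19, ULI1 from −0.078 to 0.21, YOL037C from −0.20 to 0.11, RTA1 from −0.38 to 0.0064 and PUT4 from −0.23 to 0.25. The authors' deposited table had the same sign for 40 of 40 named genes it lists. Genes near background limit what can be called, and 168 of those kept were not above background on all 6 arrays.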

Other observations

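A few genes of nitrogen use, picked because they were lower with DTT than on the arrays labelled Δopi3, are given as a description of single genes and not of the group. PUT4, a proline permease, was not lower (0.0095, adjusted p = 0.98). GAP1, the general amino acid permease, differed by −1.68, MEP2, an ammonium transporter, by −1.51, DAL80, a repressor of nitrogen genes, by −1.78, DUR12, urea amidolyase, by −1.90, and PUT1, proline oxidase, by −2.21. The sides differed from gene to gene: GAP1 fell by 1.65 with DTT and was at −0.06 against choline-fed cells on the arrays labelled Δopi3, whereas PUT1 was at −0.35 with DTT and rose by 1.93 over choline-fed cells.

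Some genes known to be repressed by glucose or to act in peroxisomes were likewise picked because they were higher on the arrays labelled Δopi3, and they stand for no group. ADH2, an alcohol dehydrogenase, differed by −2.24, FBP1, of gluconeogenesis, by −1.68, JEN1, a lactate carrier, by −1.07, SFC1, a succinate carrier, by −2.58, and the near-identical maltases MAL12 and MAL32 by −2.87 and −2.74. POX1, acyl-CoA oxidase, differed by −2.25 and PEX18, of peroxisomal import, by −2.49. Of genes of thiamine synthesis, also chosen after their values were seen, 3 rose under both stresses, THI4 by 1.24 with DTT and 2.70 over choline-fed cells, THI5, one of a near-identical family, by 0.97 and 2.36, and THI20 by 1.28 and 2.56.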
